A study of Mus musculus with 4 samples.

Results

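The genes described here make, break down and read the cyclic nucleotides cAMP and cGMP in mouse aorta. They are the adenylyl cyclases (Adcy), the guanylyl cyclases (Gucy), the phosphodiesterases (Pde), the subunits of cAMP-dependent protein kinase (PKA, genes Prka) and the cGMP-dependent protein kinases (PKG, genes Prkg). Members were matched by their gene symbols, and 51 of the 24344 distinct symbols in the files belonged to the set. RNA came from the aorta of 3-week-old C57BL/6 mice, from 2 wild-type libraries and from 2 libraries of mice with a knockout of GGPPS, the enzyme geranylgeranyl diphosphate synthase (gene Ggps1), which makes a lipid that anchors many small GTPases to membranes. The labels name male and female mice for each library, and neither the deleted allele and its target cells nor the number of animals per library can be read from the sources used here. The p-values below therefore set a difference against the spread between these libraries, estimated mostly from other genes. That spread may be partly technical.

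Adenylyl cyclases turn ATP into cAMP when receptors activate the G protein Gs, and soluble guanylyl cyclase turns GTP into cGMP when it binds nitric oxide from the endothelium. cAMP activates PKA and cGMP activates PKG, and in arterial smooth muscle these kinases lower calcium and the calcium sensitivity of the contractile apparatus, so that the vessel relaxes. Phosphodiesterases hydrolyse the cyclic nucleotides and end the signal.

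Levels are FPKM, fragments scaled to transcript length and to the mapped fragments of a library, so levels of different genes can be set side by side. Ggps1 stood at 8.96 and 10.6 FPKM (wild type) versus 1.18 and 1.07 FPKM (knockout), in the direction of the labels. Summed FPKM ranged from 515927 to 520478 in wild type and from 611767 to 632918 in knockout, and the depth of the libraries is unknown. A gene was tested with limma on log2(FPKM + 1) if it reached 1 FPKM in at least 2 libraries, and it is called higher or lower at an adjusted p under 0.05 over all 12314 tested genes. Fold changes on the log2 scale are knockout minus wild type and are damped for genes at low levels, while a plain fold is the ratio of mean FPKM. Of all tested genes 65.7% were called, 35.2% higher and 30.6% lower, with a median log2 fold change of 0.030.

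Of the 51 genes 30 were tested, and 18 of these were lower in knockout, 7 were higher and 5 did not pass. Their median log2 fold change was -0.52. The members called lower were mainly those that wild-type aorta expressed most. Of 11 members that averaged 20 FPKM or more in wild type, 10 were called lower and 1 higher, whereas 34.1% of all 3881 genes at that level were called lower. Of 9 members between 5 and 20 FPKM, 7 were called lower and 2 were not called, against 31.9% called lower among all 4735 genes at that level. Of 5 members between 1 and 5 FPKM, 1 was called lower and 2 higher, with a median of -0.033, against 30.8% lower and 27.7% higher among all genes there, so this range did not share the pattern. The 5 tested members under 1 FPKM in wild type (Adcy2, Pde1b, Pde2a, Pde8a and Prkar2b) owed their place in the test mainly to the knockout libraries, and 4 of them were called higher, against 93.5% of all genes of that kind. Pde1b, Pde2a, Pde8a and Prkar2b passed the filter only through knockout, which set their direction. Adcy2 also reached 1.06 FPKM in wild-type library 1, so the filter alone did not set its direction. The direction of these 5 is not read as a result of the set. The libraries of the genotypes did not overlap for 28 of the 30 tested members, 20 lower and 8 higher. The same held for 83.1% of all tested genes, 39.6% lower and 43.6% higher. Summed over the 51 genes, FPKM was 1006 in each wild-type library and 451 and 521 in the knockout libraries. In bulk tissue, fewer cells of a type and less RNA per cell cannot be told apart.

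**Figure D1:**
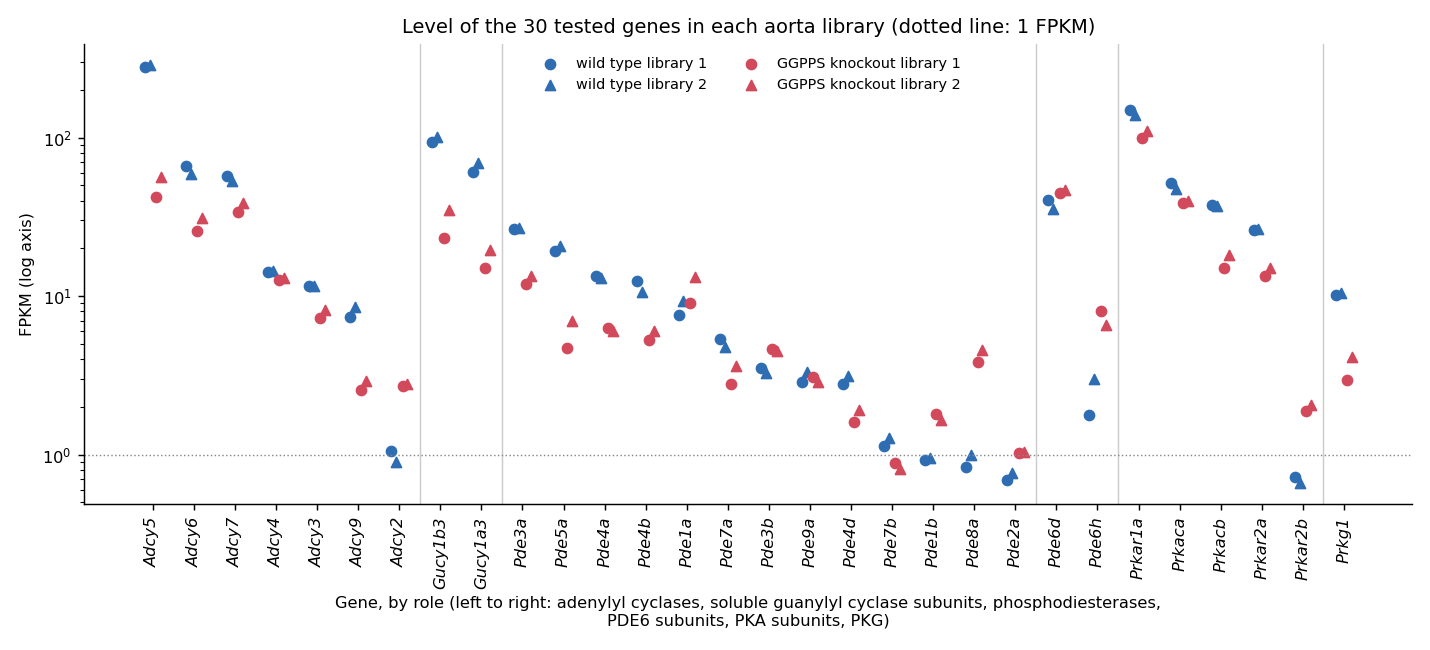
FPKM of the 30 tested genes on a log axis, 1 point per library (blue, wild type, red, GGPPS knockout, circles library 1, triangles library 2), with genes ordered by role and then by wild-type mean. Adcy5 stands at 277 and 287 FPKM (wild type) versus 42.3 and 56.5 FPKM (knockout), and most genes above 5 FPKM in wild type have their red points below their blue ones.

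Adenylyl cyclases were the most abundant of these enzymes in wild type and differed most in sum, with 435 FPKM in either wild-type library against 128 and 154 FPKM in knockout. Of 10 genes 7 were tested, 5 were lower (71.4%), 1 was higher (14.3%) and 1 did not pass (median -0.60). Over all tested genes 30.6% were called lower and 35.2% higher. Adcy5, a calcium-inhibited cyclase (mm10 chr16:35154877-35305738, plus strand), was at 277 and 287 FPKM (wild type) versus 42.3 and 56.5 FPKM (knockout). Both knockout libraries lay far below wild type, a 5.71-fold difference (limma log2 fold change -2.50 with SE 0.12, adjusted p = 1.21e-09). It was the largest change of any tested member.

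Adcy6, the closest relative of Adcy5, also inhibited by calcium, was at 66.6 and 59.0 FPKM (wild type) versus 25.9 and 31.2 FPKM (knockout). This was a 2.20-fold fall without overlap (limma log2 fold change -1.12 with SE 0.12, adjusted p = 1.88e-06), with a log2 fold change of -0.74 when length and GC trends were removed. Adcy7, a cyclase abundant in blood cells, fell from 57.3 and 52.9 FPKM to 33.7 and 38.5 FPKM (limma log2 fold change -0.60 with SE 0.11, adjusted p = 0.000267, and -0.29 with length and GC trends removed). Adcy9, a widely expressed cyclase that forskolin activates poorly, stood lower, at 7.40 and 8.54 FPKM in wild type, and fell 2.90-fold to 2.57 and 2.93 FPKM (limma log2 fold change -1.26 with SE 0.13, adjusted p = 1.41e-06).

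Adcy3, the cyclase of olfactory neurons and primary cilia, had 11.6 and 11.5 FPKM (wild type) versus 7.30 and 8.14 FPKM (knockout) (limma adjusted p = 0.00149). Its call ended when length and GC trends were removed (-0.16 against a log2 fold change of -0.53, limma adjusted p = 0.204), and 22.1% of its exon bases are shared with the antisense gene Cenpo, whose 4 libraries lay between 4.38 and 4.86 FPKM. Adcy4, a relative of Adcy2 and Adcy7, did not pass, at 14.2 and 14.4 FPKM (wild type) versus 12.6 and 12.9 FPKM (knockout), with a 95% interval of the log2 fold change from -0.39 to 0.090. Once column totals were made equal it was called lower (log2 fold change -0.40, limma adjusted p = 0.00396).

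Adcy2 moved the other way. This calcium-insensitive cyclase, which G protein beta-gamma subunits stimulate, was at 1.06 and 0.903 FPKM (wild type) versus 2.73 and 2.80 FPKM (knockout), a 2.82-fold rise from a low level (limma log2 fold change 0.93 with SE 0.12, adjusted p = 1.56e-05). The neuronal cyclases Adcy1 and Adcy8 were not tested. Adcy1 stood at 0.406 and 0.543 FPKM (wild type) versus 0.0323 and 0.0369 FPKM (knockout), and Adcy8 at 0.382 and 0.512 FPKM (wild type) versus 1.05 and 0.999 FPKM (knockout). Adcy10, the bicarbonate-activated soluble cyclase, was listed at 0 in the 4 libraries.

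The nitric oxide receptor fell as a pair. Soluble guanylyl cyclase is a dimer of an alpha and a beta subunit, and in these files the main alpha subunit carries its older symbol Gucy1a3 (now Gucy1a1) and the beta subunit the older symbol Gucy1b3 (now Gucy1b1). Gucy1a3 (mm10 chr3:82092427-82145789, minus strand) was at 61.0 and 69.2 FPKM (wild type) versus 15.1 and 19.5 FPKM (knockout), 3.77-fold lower (limma log2 fold change -1.86 with SE 0.13, adjusted p = 2.99e-08). Gucy1b3 (chr3:82032006-82074689, minus strand) was at 93.1 and 100.2 FPKM (wild type) versus 23.2 and 34.9 FPKM (knockout), 3.33-fold lower (limma log2 fold change -1.73 with SE 0.15, adjusted p = 2.73e-07). For each subunit the knockout libraries lay below both wild-type libraries. The genes lie in tandem on the same strand, 17737 bases apart. The ratio of Gucy1a3 to Gucy1b3 was 0.656 and 0.691 in wild type and 0.650 and 0.560 in knockout. The other alpha subunit, Gucy1a2, was not tested (0.673 and 0.737 FPKM in wild type, 0.420 and 0.526 FPKM in knockout), and Gucy1b2 stayed at or under 0.0182 FPKM.

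The 5 receptor guanylyl cyclases matched by symbol (Gucy2c, Gucy2d, Gucy2e, Gucy2f and Gucy2g), known from gut, retina and olfactory tissue, were at most at 0.0586 FPKM and none was tested. Gucy2d and Gucy2f were listed at 0 throughout. The natriuretic peptide receptors Npr1 and Npr2, which are guanylyl cyclases too, carry other symbols and are described with the inputs to the pathway.

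Promoter windows show what stands upstream of some of these genes. Gucy1a3 and Prkar1a have further windows that are not printed. RefSeq (GRCm38.p6) gave windows from 250 bases before to 50 bases after a start for 40 of the 51 genes, 80 windows in all. Those printed include both subunits of soluble guanylyl cyclase, the largest fall (Adcy5) and the only member with a full cAMP response element (Prkar1a). Also printed is Pde8a, the member with the highest log2 fold change, whose direction was fixed by passing the filter only through knockout. Capitals mark the full element TGACGTCA or its core, TGACG or CGTCA, and each sequence reads 5′ to 3′ along the gene's strand.
Gucy1a3 (chr3:82145601-82145900, minus strand): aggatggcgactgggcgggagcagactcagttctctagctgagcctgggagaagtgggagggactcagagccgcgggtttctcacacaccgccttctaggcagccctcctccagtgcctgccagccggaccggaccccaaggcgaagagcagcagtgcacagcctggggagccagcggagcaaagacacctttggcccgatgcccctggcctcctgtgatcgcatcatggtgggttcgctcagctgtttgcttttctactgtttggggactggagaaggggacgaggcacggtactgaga
Gucy1b3 (chr3:82074662-82074961, minus strand): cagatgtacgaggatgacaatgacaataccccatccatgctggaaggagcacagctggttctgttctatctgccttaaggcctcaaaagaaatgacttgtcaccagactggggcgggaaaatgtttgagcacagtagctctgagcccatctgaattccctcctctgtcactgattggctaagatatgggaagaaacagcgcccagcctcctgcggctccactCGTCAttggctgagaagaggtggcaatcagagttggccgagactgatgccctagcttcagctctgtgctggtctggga
Adcy5 (chr16:35154614-35154913, plus strand): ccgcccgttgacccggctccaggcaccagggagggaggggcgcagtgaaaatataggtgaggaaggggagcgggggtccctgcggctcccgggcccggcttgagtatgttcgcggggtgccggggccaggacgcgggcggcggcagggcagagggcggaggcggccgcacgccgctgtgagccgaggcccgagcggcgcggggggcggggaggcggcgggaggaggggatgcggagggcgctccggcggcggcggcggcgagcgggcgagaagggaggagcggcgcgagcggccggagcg
Prkar1a (chr11:109650699-109650998, plus strand): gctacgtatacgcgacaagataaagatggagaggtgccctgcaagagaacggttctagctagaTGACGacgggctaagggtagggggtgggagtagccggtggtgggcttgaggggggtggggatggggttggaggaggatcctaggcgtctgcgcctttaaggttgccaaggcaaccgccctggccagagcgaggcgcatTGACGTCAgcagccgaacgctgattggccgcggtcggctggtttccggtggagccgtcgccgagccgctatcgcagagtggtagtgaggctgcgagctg
Pde8a (chr7:81213015-81213314, plus strand): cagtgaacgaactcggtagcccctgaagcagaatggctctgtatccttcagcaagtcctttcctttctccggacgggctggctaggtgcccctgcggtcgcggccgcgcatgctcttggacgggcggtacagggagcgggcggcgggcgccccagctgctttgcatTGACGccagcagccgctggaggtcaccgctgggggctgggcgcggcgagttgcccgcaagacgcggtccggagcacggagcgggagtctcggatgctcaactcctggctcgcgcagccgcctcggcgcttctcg

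The full element, which CREB binds, was in 2 of the 80 member windows (2.50%), overlapping windows of Prkar1a that hold the same copy, and in 1.79% of all 32851 windows. In the printed Prkar1a window it starts 49 bases before the start site. The core, which is also part of the full element, was in 19 of the 80 member windows (23.8%) and in 20.8% of all windows, searched on both strands. Counted by gene, 17 of the 40 members (42.5%) had it in at least 1 window against 23.1% of all 27025 genes, but the members had 80 windows for 40 genes and all genes 32851 windows for 27025. Gucy1b3, called lower, and Pde8a, which passed the filter only through knockout and was called higher, each hold a core. The CArG box, bound by serum response factor and searched by its 10-base consensus, was in none of the 80 member windows and in 1.63% of all windows. These are matches of letters, and no match says nothing of sites outside the windows.

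PKG, the kinase that cGMP activates in smooth muscle, was lower as well. Prkg1 (mm10 chr19:30564489-31765033, minus strand) was at 10.1 and 10.4 FPKM (wild type) versus 2.94 and 4.14 FPKM (knockout). This 2.90-fold fall left both knockout libraries well below wild type (limma log2 fold change -1.32 with SE 0.14, adjusted p = 2.06e-06). Prkg2, the membrane-bound kinase of gut and bone, was not tested, with 0.274 and 0.264 FPKM (wild type) versus 0.575 and 0.640 FPKM (knockout).

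In PKA a pair of regulatory subunits holds the catalytic subunits inactive until it binds cAMP. Of 6 genes 5 were tested, 4 were lower (80%) and 1 was higher (20%), with a median of -0.46. Over all tested genes 30.6% were called lower and 35.2% higher. Summed over the 6 genes, FPKM went from 264 and 251 in wild type to 169 and 185 in knockout. The catalytic subunit genes fell unequally. Prkacb was at 37.5 and 37.2 FPKM (wild type) versus 15.1 and 18.1 FPKM (knockout), 2.25-fold lower (limma log2 fold change -1.13 with SE 0.12, adjusted p = 1.44e-06). Prkaca was at 51.4 and 47.3 FPKM (wild type) versus 38.5 and 40.1 FPKM (knockout), 1.26-fold lower (limma log2 fold change -0.32 with SE 0.10, adjusted p = 0.0147). By limma the adjusted p of Prkaca was 0.213 when wild-type library 1 was left out and 0.0604 when wild-type library 2 was, so the call rests on both. The ratio of Prkaca to Prkacb was 1.37 and 1.27 in wild type and 2.55 and 2.21 in knockout.

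Among the regulatory subunits, Prkar1a was the most abundant, at 149 and 139 FPKM (wild type) versus 99.4 and 109 FPKM (knockout) (limma log2 fold change -0.46 with SE 0.10, adjusted p = 0.00106, and -0.72 with equal column totals). It made up 83.7% to 86.1% of regulatory subunit FPKM in each library. Prkar2a, a type II regulatory subunit that binds anchoring proteins tightly, fell from 26.0 and 26.3 FPKM to 13.5 and 15.0 FPKM (limma log2 fold change -0.83 with SE 0.11, adjusted p = 1.83e-05). Its relative Prkar2b (mm10 chr12:31958476-32061296, minus strand), known from brain and fat, stood at 0.725 and 0.664 FPKM (wild type) versus 1.89 and 2.07 FPKM (knockout). It passed the filter only through the knockout libraries and was called higher (limma log2 fold change 0.81 with SE 0.12, adjusted p = 4.64e-05). The ratio of Prkar2a to Prkar2b was 35.9 and 39.6 in wild type and 7.12 and 7.27 in knockout. Prkar1b was not tested, at 0.321 and 0.221 FPKM (wild type) versus 0.802 and 0.570 FPKM (knockout). Regulatory over catalytic FPKM was 1.98 and 1.97 in wild type and 2.16 and 2.18 in knockout.

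**Figure D2:**
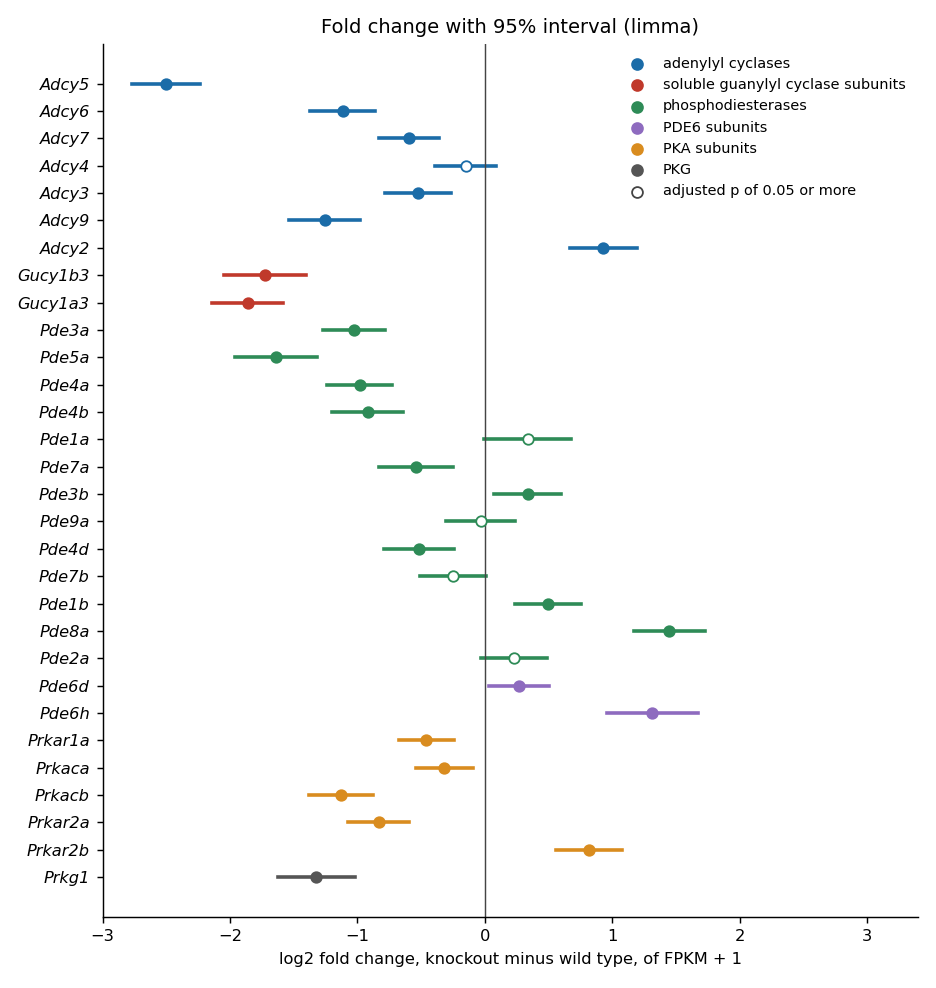
log2 fold change (knockout minus wild type, of FPKM + 1) of the 30 tested genes with limma's 95% interval, coloured by role, with open circles at an adjusted p of 0.05 or more. The largest fall is Adcy5 at -2.50, followed by Gucy1a3 at -1.86 and Gucy1b3 at -1.73. The highest value is 1.44 for Pde8a, which passed the filter only through knockout, so that its direction was fixed.

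Phosphodiesterases other than PDE6 were mixed. Of 18 genes 13 were tested, 6 were lower (46.2%), 3 were higher (23.1%) and 4 did not pass (median -0.25). Over all tested genes 30.6% were called lower and 35.2% higher. Summed over the 18 genes, FPKM was 98.3 and 99.9 in wild type and 58.6 and 68.5 in knockout. The genes that fell included the most abundant ones of wild type, and the 3 that rose were each under 4 FPKM in wild type. Of those 3, Pde1b and Pde8a passed the filter only through knockout, which fixed their direction.

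Of the enzymes selective for cGMP, Pde5a, the target of sildenafil, fell and Pde9a did not pass. Pde5a (mm10 chr3:122728947-122859374, plus strand) was at 19.4 and 20.6 FPKM (wild type) versus 4.69 and 6.95 FPKM (knockout). This 3.43-fold fall was the largest of any phosphodiesterase (limma log2 fold change -1.64 with SE 0.15, adjusted p = 4.36e-07). Pde9a, the enzyme with the highest affinity for cGMP, was at 2.86 and 3.31 FPKM (wild type) versus 3.08 and 2.89 FPKM (knockout). Its libraries overlapped, with a 95% interval of the log2 fold change from -0.30 to 0.24.

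The enzymes selective for cAMP fell in 4 of 6 tested cases (66.7%), against 30.6% of all tested genes. Pde4a was at 13.3 and 13.0 FPKM (wild type) versus 6.28 and 6.06 FPKM (knockout) (limma log2 fold change -0.98 with SE 0.12, adjusted p = 5.79e-06). Pde4b, like Pde4a a target of rolipram, was at 12.5 and 10.7 FPKM (wild type) versus 5.26 and 6.01 FPKM (knockout) (limma adjusted p = 2.52e-05). Pde4d, the third PDE4 gene detected, went from 2.79 and 3.12 FPKM to 1.62 and 1.90 FPKM (limma adjusted p = 0.00255). These PDE4 genes fell without overlap, and Pde4c stayed at or under 0.0780 FPKM and was not tested.

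Pde7a, a high-affinity enzyme, fell from 5.39 and 4.80 FPKM to 2.79 and 3.61 FPKM (log2 fold change -0.54, limma adjusted p = 0.00305, and -0.32 with length and GC trends removed). Its relative Pde7b did not pass, at 1.13 and 1.27 FPKM (wild type) versus 0.882 and 0.818 FPKM (knockout) (log2 fold change -0.25, 95% interval from -0.51 to 0.0098), and was called lower with equal column totals and with quantile normalization (limma adjusted p = 0.0124 and 0.0231). Having passed the filter only through wild type, it could not have been counted as a rise.

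Pde8a, a cAMP-selective enzyme of very high affinity that the common inhibitor IBMX does not block, ran against this. Its gene (mm10 chr7:81213596-81334533, plus strand) was at 0.840 and 0.994 FPKM (wild type) versus 3.85 and 4.60 FPKM (knockout), 4.61-fold higher (limma log2 fold change 1.44 with SE 0.13, adjusted p = 3.88e-07). Both wild-type libraries were just under the filter of 1 FPKM, so a fall could not have been called. Pde8b was not tested, at 0.267 and 0.311 FPKM (wild type) versus 0.943 and 1.01 FPKM (knockout). Without a filter Pde8b was called higher too (log2 fold change 0.62, limma adjusted p = 0.00106). Of the other untested members, Adcy8, Pde1c, Pde10a, Prkar1b and Prkg2 were then called higher. Adcy1 was called lower in that setting (log2 fold change -0.51, limma adjusted p = 0.00158).

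Among enzymes that hydrolyse both cyclic nucleotides, Pde3a, the cGMP-inhibited enzyme that milrinone blocks in heart and vessel, was the most abundant and fell. It was at 26.6 and 26.9 FPKM (wild type) versus 11.9 and 13.3 FPKM (knockout) (limma log2 fold change -1.03 with SE 0.11, adjusted p = 2.65e-06, and -0.62 with length and GC trends removed). Pde3b, its relative known from fat and liver, was at 3.51 and 3.30 FPKM (wild type) versus 4.64 and 4.48 FPKM (knockout) (limma log2 fold change 0.34 with SE 0.12, adjusted p = 0.0263). The Pde3b call ended in 5 of 12 alternatives. By limma its adjusted p was 0.0981 and 0.190 when wild-type library 1 or 2 was left out and 0.0600 when knockout library 1 was, at log2 fold changes of 0.37, 0.30 and 0.32. With no filter it was 0.0568 at an unchanged fold, and with equal column totals it was 0.337 at a log2 fold change of 0.13. The ratio of Pde3a to Pde3b was 7.59 and 8.16 in wild type and 2.57 and 2.98 in knockout.

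Pde1a, a calcium and calmodulin activated enzyme, did not pass. It stood at 7.65 and 9.33 FPKM (wild type) versus 9.01 and 13.2 FPKM (knockout), so the genotypes overlapped (log2 fold change 0.33, 95% interval from -0.0084 to 0.68, limma adjusted p = 0.0793). By limma it was called higher when wild-type library 2 was left out (0.46, adjusted p = 0.0403) and when knockout library 1 was (0.59, adjusted p = 0.0145). It stood at 0.083 without knockout library 2 and 0.21 without wild-type library 1. Pde1b, of the same family, was called higher from a low level, at 0.931 and 0.951 FPKM (wild type) versus 1.80 and 1.66 FPKM (knockout) (limma log2 fold change 0.49 with SE 0.12, adjusted p = 0.00266), and passed the filter only through knockout. Pde2a, stimulated by cGMP, likewise passed only through knockout and did not reach the threshold, at 0.696 and 0.768 FPKM (wild type) versus 1.02 and 1.04 FPKM (knockout) (log2 fold change 0.23, 95% interval from -0.028 to 0.49). It was called with no filter and after removal of length and GC trends (limma adjusted p = 0.0482 and 0.011), and 64.3% of its exon bases are shared with the same-strand gene model Gm45837. Pde1c, Pde10a and Pde11a were not tested and stayed at or under 0.536 FPKM.

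PDE6 is the phosphodiesterase of photoreceptors. Its catalytic subunit genes Pde6b and Pde6c were listed at 0 in the 4 libraries, and Pde6a and the inhibitory subunit gene Pde6g were at most at 0.0228 and 0.365 FPKM. Pde6d, in spite of its name, encodes no phosphodiesterase but a protein that binds the prenyl tail of proteins and carries them between membranes. It was at 40.3 and 35.2 FPKM (wild type) versus 44.6 and 46.5 FPKM (knockout). Both knockout libraries were above wild type, but by little (limma log2 fold change 0.27 with SE 0.11, adjusted p = 0.0432). In 9 of 13 alternatives Pde6d lost its call, also without any 1 of the 4 libraries (limma adjusted p from 0.0584 to 0.429), and its log2 fold change was 0.0093 with equal column totals and -0.10 after removal of length and GC trends, with adjusted p-values of 0.941 and 0.428.

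Pde6h, the cone inhibitory subunit, was at 1.78 and 2.99 FPKM (wild type) versus 8.03 and 6.60 FPKM (knockout) (limma log2 fold change 1.31 with SE 0.16, adjusted p = 9.65e-06). Its exons share 136 bases, 1.73% of its exon bases, with Arhgdib on the opposite strand. Arhgdib was at 15.9 and 14.6 FPKM (wild type) versus 61.1 and 54.9 FPKM (knockout). The sources used here do not say whether counting used strand, so fragments of the overlap cannot be told apart.

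The makeup of the adenylyl cyclases and of the phosphodiesterases differed between genotypes. Adcy5 held 63.5% and 65.9% of adenylyl cyclase FPKM in wild type against 33.0% and 36.7% in knockout, while Adcy7 went from 13.1% and 12.2% to 26.3% and 25.0%. Adcy5 remained the most abundant cyclase gene in each library. Of phosphodiesterase FPKM without PDE6, Pde5a held 19.7% and 20.6% in wild type and 8.0% and 10.2% in knockout. Pde1a, which did not pass as a gene, held 7.79% and 9.34% in wild type and 15.4% and 19.3% in knockout, and its ratio to Pde5a went from 0.395 and 0.453 to 1.92 and 1.90. Pde8a went from 0.854% and 0.995% to 6.57% and 6.71%. By selectivity, the enzymes for cAMP alone held 36.9% and 34.3% in wild type against 37.0% and 35.2% in knockout. Those for cGMP alone held 22.6% and 23.9% against 13.3% and 14.4%. Enzymes that hydrolyse both held 40.5% and 41.8% in wild type against 49.8% and 50.5% in knockout. These shares are sums of FPKM with no test.

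**Figure D3:**
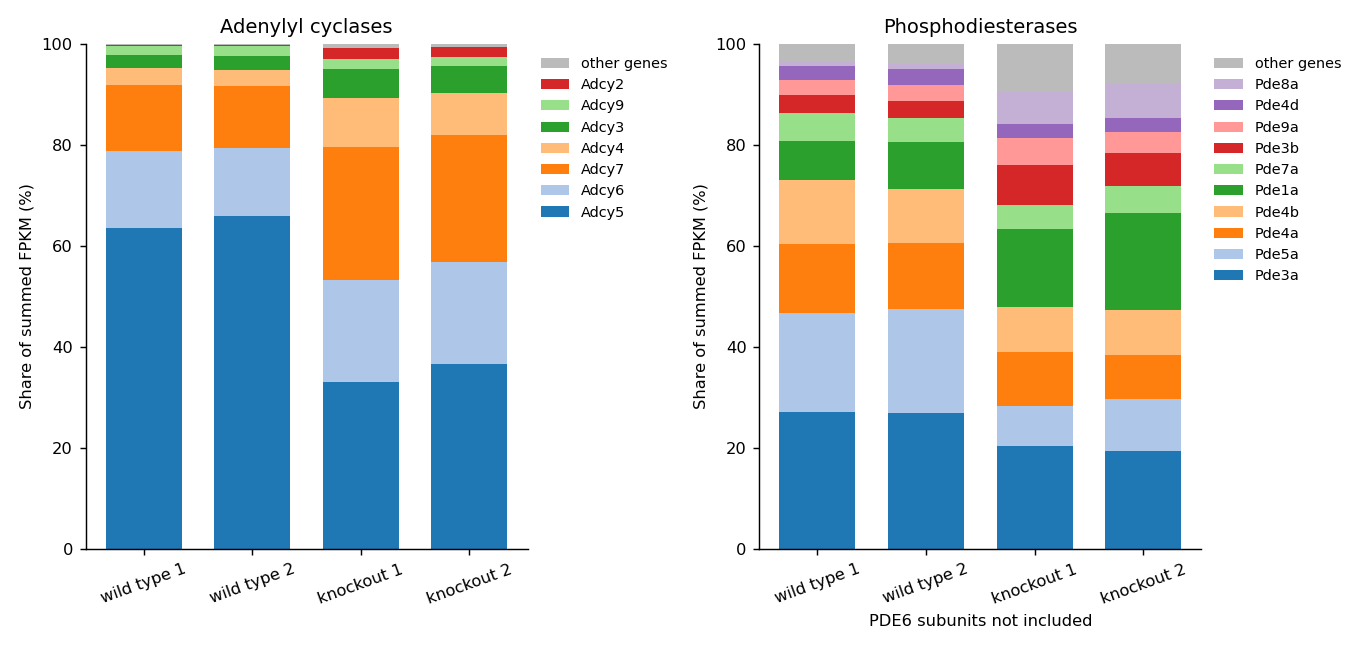
Share of summed FPKM, in percent, taken by each gene in each library, for adenylyl cyclases (left) and phosphodiesterases without PDE6 (right). Adcy5 takes 63.5% and 65.9% of adenylyl cyclase FPKM in wild type against 33.0% and 36.7% in knockout, and Pde1a and Pde8a take larger shares in knockout.

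The knockout libraries were not alike. Of the 18 members called lower, 17 stood higher in knockout library 2 than in knockout library 1, the exception being Pde4a, and the same order held for 76.2% of all genes called lower. Of the 7 called higher, 4 stood higher in knockout library 2, against 60.7% of all genes called higher. Acta2, smooth muscle actin, was at 1049 FPKM in knockout library 1 and 1791 FPKM in knockout library 2, and Myh11, smooth muscle myosin, at 127 and 211 FPKM. All 18 lower calls held without knockout library 1 and without knockout library 2.

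Markers of several cell types also differed between the genotypes, some lists lower and others higher. Beside the counts of the gene lists here and below, 30.6% of all tested genes were called lower and 35.2% higher. The 8 smooth muscle markers were all lower, with a summed level of 15618 and 17509 FPKM (wild type) versus 4010 and 5285 FPKM (knockout) (median log2 fold change -2.17), and Acta2 and Myh11 were far above 0 in every library. All 7 tested endothelial markers were lower (sum 250 and 258 FPKM against 70.9 and 87.6 FPKM), as were 6 of 8 fibroblast markers, with 1 higher (650 and 685 FPKM against 430 and 464 FPKM). Macrophage markers were higher in 7 of 8 cases and lower in 1 (77.3 and 82.4 FPKM against 441 and 374 FPKM), and all 8 leukocyte markers were higher (16.1 and 17.4 FPKM against 243 and 193 FPKM). In each of these lists 2 of the higher calls (Adgre1 and Fcgr1, Ptprc and Rac2) passed the filter only through knockout, which fixed their direction. Cd68, a macrophage protein, stood at 1.87 and 1.16 FPKM in wild type against 26.5 and 25.3 FPKM, and Ptprc, which marks leukocytes, at 0.242 and 0.220 FPKM against 2.39 FPKM in each knockout library. Fewer of the 8 markers were tested in each other list. Adipocyte markers were lower in 2 and higher in 1 of 3 tested, striated muscle markers lower in 3 of 3, nerve markers higher in 2 and lower in 1 of 3, and platelet and erythroid markers higher in 3 of 5. Of these calls 4 higher ones (Pparg, Tubb3, Itga2b and Ppbp) passed the filter only through knockout and 2 lower ones (Cidea and Ckm) only through wild type. Adipoq and Plin1, which define fat cells, were at most at 0.783 and 0.111 FPKM, and Myh4 of striated muscle was the 1 listed marker at 0 in the 4 libraries. The part of these cell types in the changes of the cyclase, phosphodiesterase and kinase genes was not tested.

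Most of the tested genes listed for nitric oxide and natriuretic peptides, the inputs to cGMP, were lower along with soluble guanylyl cyclase. Of 15 genes for nitric oxide and natriuretic peptide signalling, 6 were tested, 5 were lower and 1 was higher (median -0.70, and -0.088 with no filter, which adds the 9 genes at low levels). Npr1, the receptor cyclase for atrial natriuretic peptide, was at 206 and 192 FPKM (wild type) versus 46.7 and 54.9 FPKM (knockout) (limma log2 fold change -1.95 with SE 0.11, adjusted p = 3.21e-09). Nos3, endothelial nitric oxide synthase, was at 26.3 and 20.5 FPKM (wild type) versus 9.54 and 9.42 FPKM (knockout) (log2 fold change -1.21, limma adjusted p = 2.14e-06). Npr2, the receptor for C-type natriuretic peptide, went from 73.1 and 79.9 FPKM to 40.5 and 48.6 FPKM. Gch1, which makes the cofactor of nitric oxide synthases, rose from 1.08 and 0.987 FPKM to 5.51 and 6.48 FPKM (log2 fold change 1.78, limma adjusted p = 4.43e-08).

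Among all tested genes 30.6% were called lower and 35.2% higher. Receptors that raise or lower cAMP were lower in 9 (69.2%) and higher in 2 (15.4%) of 13 tested cases, of 25 listed (median -0.69, and -0.14 with no filter). Both higher calls (Adora2b and Ptgir) passed the filter only through knockout and 3 of the lower ones (Adra2a, Vipr2 and Ptger3) only through wild type, which fixed their direction. Ramp1, the partner of the receptor for calcitonin gene-related peptide, fell from 105 and 101 FPKM to 19.3 and 22.7 FPKM (limma log2 fold change -2.25 with SE 0.11, adjusted p = 1.09e-09). Ramp2, the partner in the adrenomedullin receptor, fell by 1.33, Vipr2 by 1.50 and Adra2a by 1.37 on the log2 scale. The G protein alpha subunit genes were lower in 4 (44.4%) and higher in 2 (22.2%) of 9 tested (median -0.17). Leaving out wild-type library 2 gave a median of -0.10, and leaving out knockout library 1 or 2 gave -0.064 or -0.36. It was -0.44 with equal column totals and 0.014 after removal of length and GC trends, so its sign depends on the setting. Gnas, which encodes the alpha subunit of Gs, was the most abundant and did not pass, with a 95% interval of the log2 fold change from -0.42 to 0.077. It was called lower with equal column totals and quantile normalization (log2 fold change -0.44 and -0.52) and without knockout library 2 (-0.36, limma adjusted p = 0.0255). Gnao1 fell by 1.33, Gnaz (past the filter only through wild type) by 0.68 and Gnai1 by 0.68 on the log2 scale, and Gnai3, an inhibitory subunit, rose by 0.47, a call that ended at equal column totals (0.21, limma adjusted p of 0.0800). Gnai2, a further inhibitory subunit, was called higher by 0.27 (limma adjusted p = 0.0184), but stood at 0.0060 with equal column totals and at -0.017 with quantile normalization.

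Of 18 anchoring proteins and PKA inhibitors, 13 were tested, 8 were lower and none was higher (median -0.47). Akap6 was at 6.56 and 6.17 FPKM (wild type) versus 1.43 and 2.08 FPKM (knockout) (log2 fold change -1.43, limma adjusted p = 8.66e-07), and Akap8, Akap13, Pkia (a PKA inhibitor) and Akap8l stood at -0.60, -0.64, -0.64 and -0.58. The Akap13 call ended after removal of length and GC trends (-0.13, limma adjusted p = 0.273). With those trends removed, Akap12, Akap2 and Akap9 were called higher (log2 fold change 0.52, 0.44 and 0.31), so the absence of rises depends on that setting.

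Other proteins that bind or carry cyclic nucleotides were lower in 4 and higher in 2 of 7 tested, of 17 listed (median -0.36, -0.24 without knockout library 1 and -0.077 with length and GC trends removed). Abcc4, an exporter of cyclic nucleotides, was at 0.463 and 0.449 FPKM (wild type) versus 10.6 and 12.7 FPKM (knockout) (limma log2 fold change 3.11 with SE 0.13, adjusted p = 2.61e-10). Abcc4 and the other higher call, the channel gene Hcn2 (log2 fold change 0.46), passed the filter only through knockout, which fixed their direction. The cAMP-binding Popeye proteins fell together, Bves from 13.2 and 12.3 FPKM to 1.72 and 2.36 FPKM (log2 fold change -2.18, limma adjusted p = 1.06e-08), with Popdc2 at -1.67 and Popdc3, past the filter only through wild type, at -1.02.

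Substrates and effectors of PKG were lower in 11 and higher in 2 of 13 tested, of 15 listed (median -1.50). The list shares Cnn1 with the smooth muscle markers, and several of its genes are known as contractile genes. Mrvi1, the PKG substrate at the calcium store, was at 57.5 and 61.5 FPKM (wild type) versus 14.6 and 17.1 FPKM (knockout) (log2 fold change -1.85, limma adjusted p = 9.52e-09). Hspb6, a small heat shock protein phosphorylated during relaxation, fell by 1.97, Ppp1r14a, an inhibitor of myosin phosphatase, by 2.27 and Cnn1, calponin, by 2.25 on the log2 scale. The 2 that rose were Lasp1 and Rhoa, by 0.69 and 0.40, and the limma adjusted p of Rhoa was 0.218 with equal column totals and 0.168 with quantile normalization, so that the call ended.

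CREB factors and genes known to be induced by cAMP were lower in 12 and higher in 2 of 16 tested, of 18 listed (median -0.54). Per1 was at 57.4 and 56.4 FPKM (wild type) versus 22.6 and 20.5 FPKM (knockout) (limma log2 fold change -1.36 with SE 0.11, adjusted p = 9.66e-08). Crtc3, a CREB coactivator, fell by 1.24, Dusp1, a MAP kinase phosphatase, by 0.87 and Crebbp, the CREB-binding protein, by 0.95 on the log2 scale. The 2 that rose were Atf1 and Crem, by 0.71 and 0.46. The limma adjusted p of Crem was 0.119 with equal column totals, 0.0941 when wild-type library 2 was left out and 0.0538 when knockout library 2 was, so that the call ended there. Some lower calls ended in some alternatives too, those of Creb1, Crtc1, Crtc2, Ep300 and Nr4a3. With length and GC trends removed, Creb1 stood at -0.045, Crtc1 at 0.18, Ep300 at -0.20 and Nr4a3 at -0.33. Per1 and Dusp1 also answer to the clock and to stress, and the sources used here do not give the hour of collection.

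**Figure D4:**
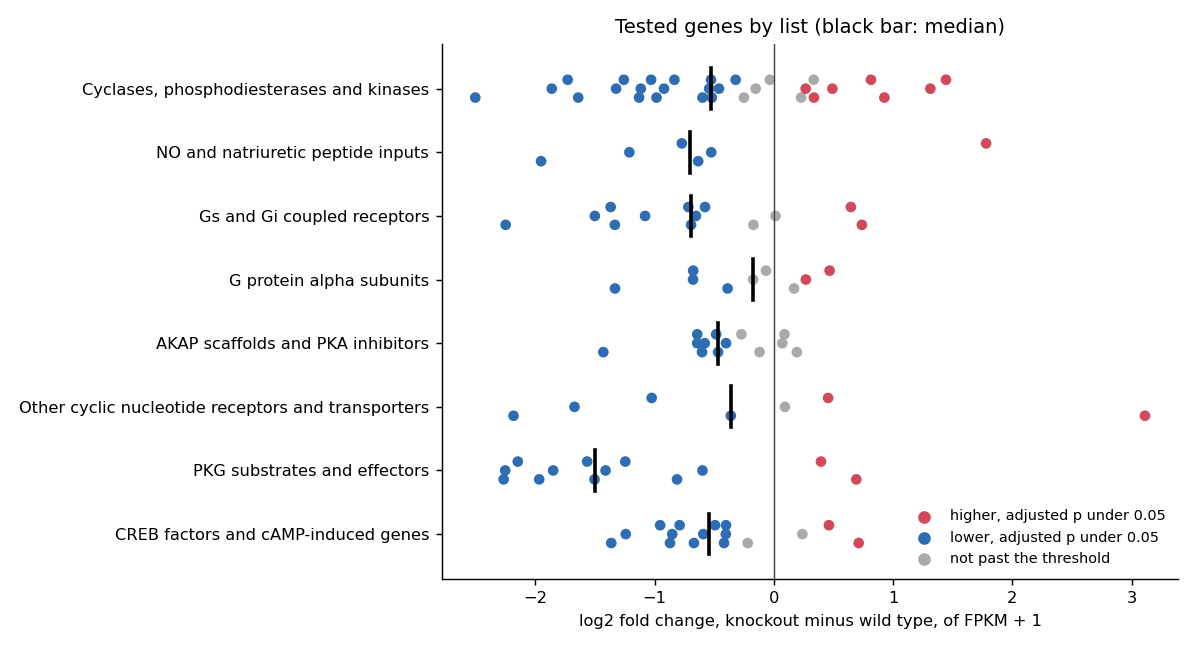
log2 fold change (knockout minus wild type, of FPKM + 1) of each tested gene in the cyclase, phosphodiesterase and kinase set and in 7 pathway lists, red where called higher, blue where called lower and grey where not past the threshold, with the median as a black bar. The median is -1.50 for PKG substrates and effectors, -0.52 for the cyclase, phosphodiesterase and kinase set and -0.17 for G protein alpha subunits.

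Of the 25 member calls, 21 held in every alternative that tested the gene, 16 of the 18 lower and 5 of the 7 higher. The exceptions were Adcy3, Prkaca, Pde3b and Pde6d. Of the 5 higher calls that held, Pde1b, Pde8a and Prkar2b passed the filter only through knockout. That fixed their direction in every setting that kept this filter, so their holding there is no evidence of a rise. With no filter, which fixes no direction, these genes were called higher at the same log2 fold changes. With column totals made equal, 20 members were lower and 5 higher, beside a shift of the median over all tested genes from 0.030 to -0.20. With length and GC trends removed, 17 were lower and 7 higher. A larger pseudocount shrinks the fold of genes at low levels by construction, so the rise of Pde8a was 0.64 and that of Adcy2 0.38 with a pseudocount of 5, and both were still called. At that pseudocount the falls of Adcy9 and Prkg1 were -0.74 and -0.84.

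**Figure D5:**
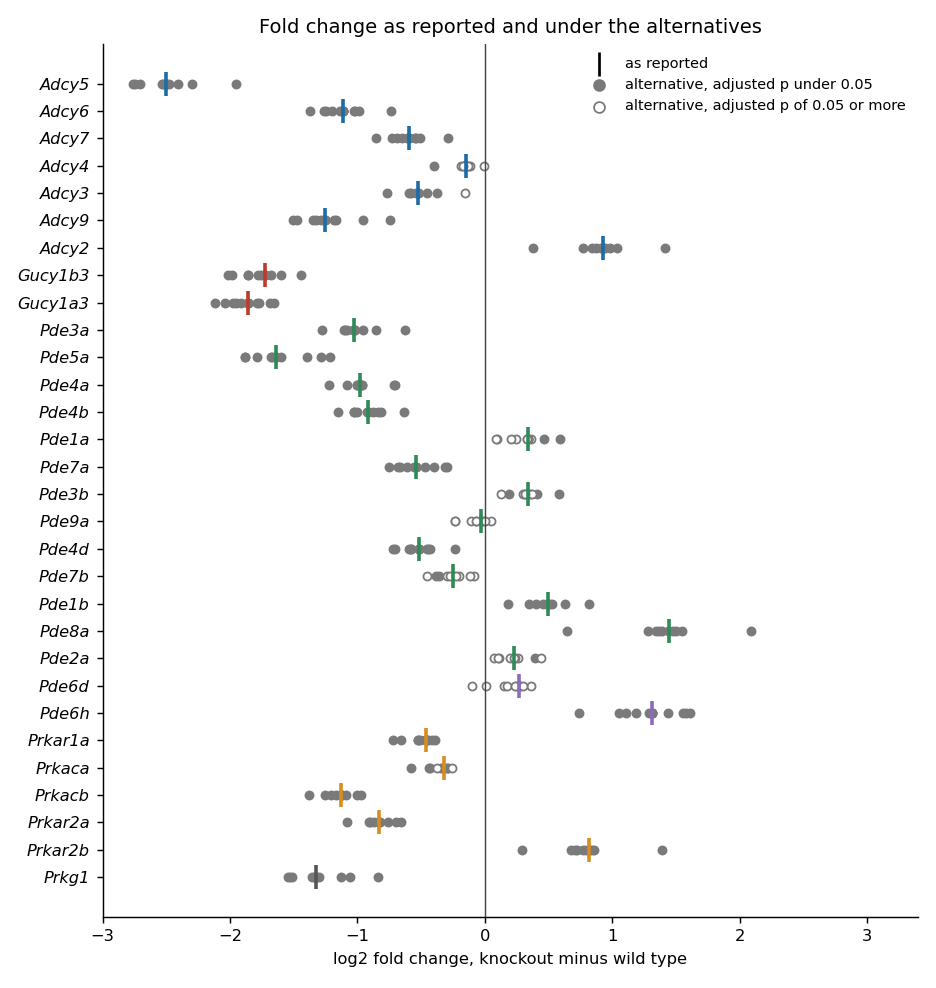
log2 fold change of each tested gene as reported (coloured bar) and under each alternative (grey circles, open at an adjusted p of 0.05 or more). Adcy5 ranges from -2.76 to -1.96 and Gucy1a3 from -2.12 to -1.66, while Pde6d ranges from -0.10 to 0.36 with open circles in 9 of 13 alternatives.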

How the data were processed

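The members and the gene lists were chosen with earlier results of these data known. RNA was prepared with TRIzol, selected for poly(A) and made into Illumina libraries, per the labels' protocols. Each library has a table of FPKM values that the authors deposited (the headers spell the unit PFKM). Tools in the submitters' processing notes, listed without roles, were DESeq2 1.16.1, featureCounts 1.5.0-p3 and HISAT2 2.0.5, with build mm10. Low values showed no step of whole fragments (the most frequent ratio between 2 libraries covered 0.302% to 0.464% of 1648 to 2188 genes), so no count test was run and depth is unknown.

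Groups follow the labelled genotype, and library numbers are names only. Genes reaching 1 FPKM in 2 or more libraries were fitted with limma 3.58.1 (R 4.3.3, trend on) on log2(FPKM + 1) over the whole table, with Benjamini-Hochberg adjustment and a threshold of 0.05. The fit had 13.4 total degrees of freedom, mostly borrowed from other genes. It was tested on simulated data. An exact permutation test of 2 against 2 cannot pass 0.05 and was not used. Positions come from GENCODE M21 (GRCm38, the assembly of mm10). Every member that passed the filter was named with its values. Full statistics were given for up to 4 called members of a role by smallest p and for members with a mean of at least 20 FPKM, and some further members got them after their values were seen. Up to 4 called genes of each pathway list were named, and further ones (Lasp1, Rhoa, Atf1, Crem, Creb1, Crtc1, Crtc2, Ep300, Nr4a3, Akap12, Akap2, Akap9, Pkia, Hcn2, Ptger3, Adora2b, Ptgir, Gnai2, Gnas) after their values were seen. The 13 alternatives changed the pseudocount, filter, scaling, variance model and libraries used, or removed trends of length and GC content, known for 99.3% of tested genes. A planned description of C-terminal cysteine motifs in protein sequences was not analysed here.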

Additional observations from a re-analysis of the deposited data

How the results depend on the processing

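No paired analysis was possible because the library numbers are names given in accession order and the labels pair no libraries. Members called higher numbered 12 with no filter and 2 with a filter of 5 FPKM, against 7. Pathway list genes called higher numbered 17 with no filter and 7 with equal column totals, against 11. Over all tested genes the median log2 change was -0.20 with equal column totals, -0.028 with quantile normalization and from -0.020 to 0.080 with 1 library left out, against 0.030, and calls split into 3116 higher and 5580 lower with equal column totals, against 4332 and 3764. For all members the median was -0.34 with a pseudocount of 5, -0.093 with no filter, -0.95 with a filter of 5 FPKM, -0.74 with equal column totals and -0.37 with length and GC trends removed, against -0.52. For adenylyl cyclases it was -0.86 with a filter of 5 FPKM or equal column totals, -0.73 with quantile normalization and -0.29 with length and GC trends removed, against -0.60. For phosphodiesterases it was -0.45 and -0.084 with pseudocounts of 0.1 and 5, 5.2e-05 with no filter, -0.98 with a filter of 5 FPKM, -0.38 with equal column totals and -0.36 with quantile normalization, against -0.25. For PKA subunits it was -0.65 with a filter of 5 FPKM, -0.72 with equal column totals and -0.66 with quantile normalization, against -0.46. With length and GC trends removed the G protein list stood at 0.014, Pde6d at -0.10, Akap9 at 0.31 and Crtc1 at 0.18. The list of other receptors and transporters stood at 0.011 with no filter and Gnai2 at -0.017 with quantile normalization. Other list medians that moved by over 1.5 times were receptors for cAMP (-0.26 with a pseudocount of 5, -1.08 with a filter of 5 FPKM), anchoring proteins (-0.27 with no filter, -0.71 with equal column totals, -0.29 with length and GC trends removed), other receptors and transporters (-1.02 with a filter of 5 FPKM, -0.62 with equal column totals), CREB genes (-0.32 with a pseudocount of 5) and G proteins (-0.43 with quantile normalization). The filters change which genes are tested, and for the scalings and trends the cause was not tested. With 1 library left out, the lone library of that genotype is assumed to vary like those of the other. Depth is unknown, so low values carry no counting limit.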
